A study of Ictidomys tridecemlineatus with 5 samples.

Results

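The contractile genes of skeletal muscle were described in the ground squirrel Ictidomys tridecemlineatus, in whole eye and in retina, as a readout of the striated muscle that moves the eyeball. The list held 33 Swiss-Prot entry names of sarcomere and calcium-handling proteins, and members were the assembled transcripts whose best Swiss-Prot hit carried a listed name. Of the 33 names, 32 were found among 15938 names in all, with 281 transcripts in eye and 88 in retina. MYOM2, myomesin of the M band, was found in neither table. The study holds 2 eye libraries and 3 retina libraries of wild-type animals, and the labels name no treatment. Per the labels, RNA of 4 animals was pooled for library preparation. The labels do not say how much orbital muscle was left on the eye. Each tissue has 1 deposited value per transcript, so no difference between the tissues has a replicate check, and no test was run. With 1 value per transcript, the number of muscle cells, the RNA per muscle cell and RNA of other cells cannot be told apart in the differences given here.

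Striated muscle contracts when myosin heads of the thick filament pull on actin of the thin filament. Calcium released from the sarcoplasmic reticulum binds troponin C, and the troponin complex then lets myosin reach actin. Most proteins of this machine exist as fast and slow isoforms encoded by separate genes. The extraocular muscles are known in mammals for combining many of them, including the superfast heavy chain MYH13 and heavy chains otherwise typical of embryonic and perinatal muscle.

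Each entry name is given the level of its highest transcript, in RPKM, a read count scaled by transcript length and by 1 read total per tissue. To compare tissues, 1 RPKM was added to both levels and the log2 of retina was subtracted from the log2 of eye, a scale on which differences of low genes are understated. A name was called higher or lower at a 2-fold difference on that scale. The totals behind the scaling were 264219334 reads in eye and 355988270 reads in retina. A level of 1 RPKM on a transcript of 1000 bases thus stands for 264 reads in eye, with a 95% Poisson interval of 233 to 298, and for 356 reads in retina, with an interval of 320 to 395. Such intervals treat reads as independent and hold counting error only. The reads recovered from all transcripts came to 19.2 times the total in eye and 10.5 times in retina, so reads may be counted on several transcripts and the intervals may be too narrow, which was not tested. Of 5 photoreceptor markers 4 were found in both tables, with a summed level of 2385 RPKM in eye and 4777 RPKM in retina. Of 8 skeletal muscle markers, all of them members, 8 were found in eye and 6 in retina.

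Contractile transcripts were abundant in eye and mostly low or missing in retina. The 32 members ranged from 2.92 to 952 RPKM in eye, with a median of 55.8, and 28 of them lay above the median of all names in eye, 8.01 RPKM. In retina 18 members were found, from 0.243 to 601 RPKM, with a median of 1.45, against 7.92 RPKM over all names. Of these 18, 11 were under 2 RPKM in retina, and none of the 32 members found in eye was under 2 RPKM there. The share of all names under 2 RPKM was not computed for either tissue. Among the 18 members that both tissues share, eye was the higher by some amount for 15, where 49.7% of the 13383 names compared were. A 2-fold difference was passed by 13 members, which were higher in eye, where 11.8% of the names compared passed it. On the opposite side stood 1 member, ACTN3, and 3.6% of the names. The median difference of the 18 members was 3.14, and that of all names was -0.0035. The other 14 members were in the eye table only, as were 8.75% of the names in that table. A name missing from the retina table has no value there, so no fold difference is given for it.

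**Figure D1:**
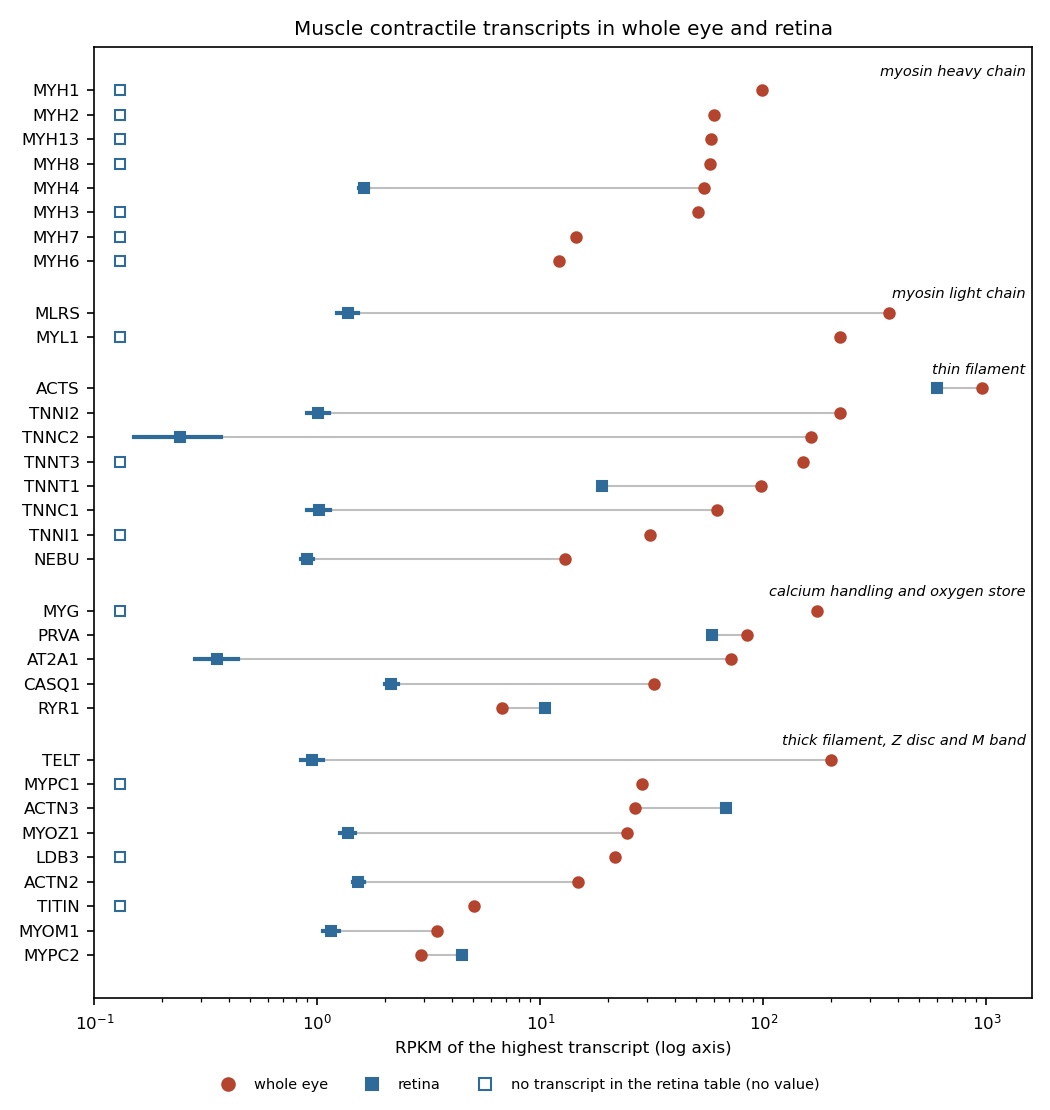
RPKM of the highest transcript (horizontal log axis) of the 32 members found, grouped by role, in whole eye (circles) and retina (filled squares, with the 95% counting interval). Open squares mark the 14 members with no transcript in the retina table and stand for no value. For 13 of the 18 members with both values the eye value lies at least 2-fold above the retina value, while ACTS, PRVA, RYR1, ACTN3 and MYPC2 have close or reversed pairs.

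Myosin heavy chains, the motors of the thick filament, were found under all 8 listed names in eye and under 1 of these in retina. MYH1, the fast type 2X chain, was highest in eye at 98.5 RPKM. It was followed by MYH2, the fast type 2A chain, at 60.1 RPKM, and MYH13, the superfast chain of extraocular muscle, at 58.2 RPKM. MYH8, the perinatal chain, was at 57.3 RPKM in eye. MYH4, the fast type 2B chain, and MYH3, the embryonic chain, were at 54.2 and 50.6 RPKM. The 5 names after MYH1 lay within 10 RPKM of each other.

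The slow chain MYH7, shared by slow skeletal fibres and heart ventricle, was at 14.5 RPKM in eye, on a single transcript of 6021 bases that aligned over 1922 residues. MYH6, the cardiac alpha chain that is also known from some extraocular fibres, was lowest at 12.1 RPKM. That value came from a fragment of 445 bases at 76% similarity to its hit. The other 6 fragments of MYH6, at 83% to 100% similarity, were at 0.818 to 8.29 RPKM. Under the listed names, retina had 1 heavy chain transcript, with MYH4 as its best hit at 85% similarity. It was at 1.61 RPKM over 3071 bases, which gave a difference of 4.40 for MYH4. The other 7 names had no transcript in the retina table.

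The order of the heavy chains depended on which fragment stood for a name, and most of them were assembled in pieces. The 40 eye transcripts of the 6 names MYH1, MYH2, MYH3, MYH4, MYH8 and MYH13 were 159 to 2345 bases long. The 6 transcripts of MYH1 ranged from 21.9 to 98.5 RPKM, and the 9 of MYH13 from 7.94 to 58.2 RPKM. Those of MYH4 were the most even of these 6 names, from 28.8 to 54.2 RPKM over 6 transcripts. By the median over transcripts MYH4 was highest at 42.4 RPKM, then MYH1 at 38.5 RPKM, MYH2 at 32.5 and MYH8 at 31.4. MYH13 and MYH3 followed at 23.3 and 22.1 RPKM, and MYH7 and MYH6 were lowest at 14.5 and 3.98. Both orders placed MYH7 and MYH6 below the other 6 names, but by the longest-aligned transcript MYH13, at 13.9 RPKM, lay below MYH7. The order within the 6 was not the same.

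The similarity of these fragments to their hits ranged from 65% to 100%, and heavy chain paralogs share long stretches, so the split of reads among the names is uncertain. In the RefSeq annotation of the species (assembly mIctTri1.hap1, used for names and neighbours only), MYH13, MYH8, MYH1 and MYH3 stand in that order. No coding gene lies between the first pair, and 1 lies between each later pair.

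**Figure D2:**
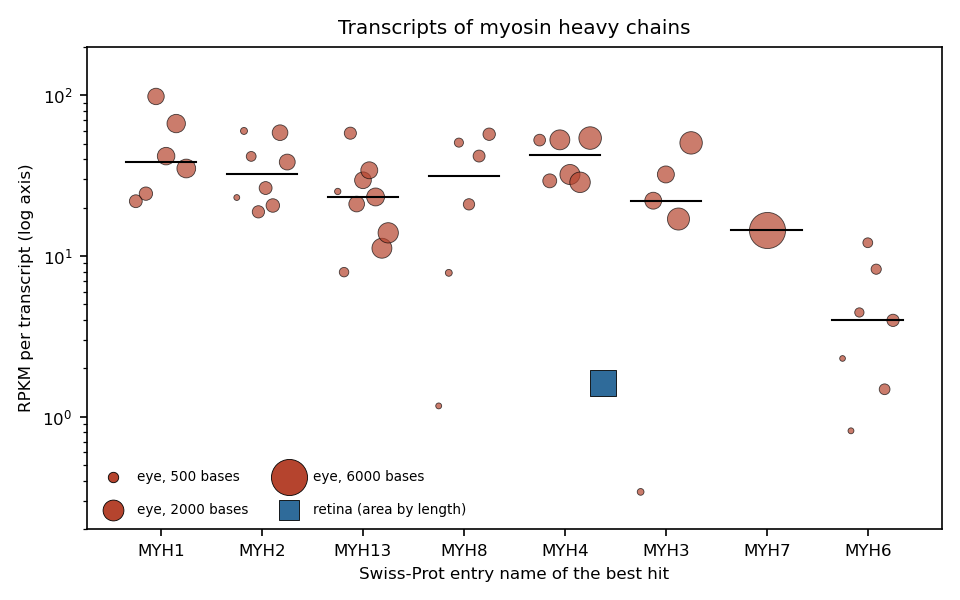
RPKM (vertical log axis) of each transcript of the 8 myosin heavy chain names in eye (circles) and of the 1 transcript in retina (square), with marker area proportional to transcript length and a line at the median of the eye transcripts. The fragments of MYH1, MYH2, MYH13, MYH8, MYH4 and MYH3 overlap in level, and the 7 fragments of MYH6 lie at 0.818 to 12.1 RPKM.

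Light chains stabilise the lever arm of myosin. MLRS, the fast regulatory light chain encoded by Mylpf, was at 366 RPKM in eye and 1.37 RPKM in retina, a ratio of 267. Its transcripts were of similar length, 645 bases in eye and 718 in retina, and both aligned over 157 residues. Its difference was 7.27 on the log2 scale. MYL1, the essential light chain of fast fibres, was at 220 RPKM in eye on 871 bases and was missing from the retina table. A further eye transcript, at 178 RPKM on 890 bases, had as its best hit MLE3, a name for skeletal myosin light chain 3. MLE3 is outside the list and was chosen after its value was seen.

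Of the troponins, which make the thin filament sensitive to calcium, all 6 names were found in eye. Fast isoforms were higher than their slow counterparts in eye. Fast troponin I, TNNI2, was at 220 RPKM and slow troponin I, TNNI1, at 30.8 RPKM, a ratio of 7.13 (95% counting interval 6.97 to 7.30). Fast troponin C, TNNC2, was at 164 RPKM and the slow and cardiac form TNNC1 at 61.6 RPKM, a ratio of 2.66. For troponin T, which ties the complex to tropomyosin, fast TNNT3 was at 151 RPKM and slow TNNT1 at 97.3 RPKM, a ratio of 1.55. With length-weighted means over transcripts the fast form was also the higher one of each pair, with a ratio of 6.47 for troponin I and 2.31 for troponin C.

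In retina fewer troponin names were found. TNNI2 was at 220 RPKM in eye and 1.01 RPKM in retina, and TNNC2 at 164 RPKM in eye and 0.243 RPKM in retina. The retina value of TNNC2 came from a fragment of 243 bases with 21 reads. TNNC1 was at 61.6 RPKM in eye and 1.01 RPKM in retina. Among the listed troponins TNNT1 was the highest in retina, at 97.3 RPKM in eye and 18.9 RPKM in retina. Its transcripts, of 836 and 1051 bases, both aligned over 192 residues. TNNT2, cardiac troponin T, which is outside the members, was higher in retina, at 41.9 RPKM. TNNT3 and TNNI1 were in the eye table only. Troponin C was thus the 1 pair with both forms in retina, and there the slow form was the higher one.

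Skeletal actin, ACTS, forms the thin filament itself and had the highest level of all members, at 952 RPKM in eye and 601 RPKM in retina. Both values came from fragments of 131 and 135 bases. Of its 66 eye transcripts 65 were shorter than 200 bases, as were 35 of 36 in retina, and the short ones all had the actin of the newt Pleurodeles waltl as their best hit. The 1 long eye transcript, of 1551 bases, matched chicken skeletal actin over 377 residues and was at 374 RPKM. The 1 long retina transcript, of 1738 bases, matched over 47 residues only and was at 20.6 RPKM. Over the short fragments the median was 670 RPKM in eye and 455 RPKM in retina. Actins of other muscles and of the cytoskeleton are nearly identical over such lengths. ACTB, cytoplasmic beta-actin, which most cells express, was likewise mostly in short fragments, with 2 of 60 eye transcripts and 2 of 26 retina transcripts at 200 bases or more. As reads of paralogs may be shared, the level of ACTS is uncertain in both tissues. Its difference was 0.66 by the highest transcripts, -0.62 by the best-matching ones and 4.12 by those of 200 bases or more.

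Nebulin, NEBU, the long protein that runs along the thin filament, was at 12.9 RPKM in eye and 0.897 RPKM in retina. Each tissue had 8 transcripts of it, the longest of 11196 bases in eye and 3648 bases in retina. The 11196-base transcript was at 5.74 RPKM and aligned over 3732 residues. Every eye transcript of nebulin, from 2.47 RPKM upwards, lay above every retina transcript, which reached 0.897 RPKM at most.

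**Figure D3:**
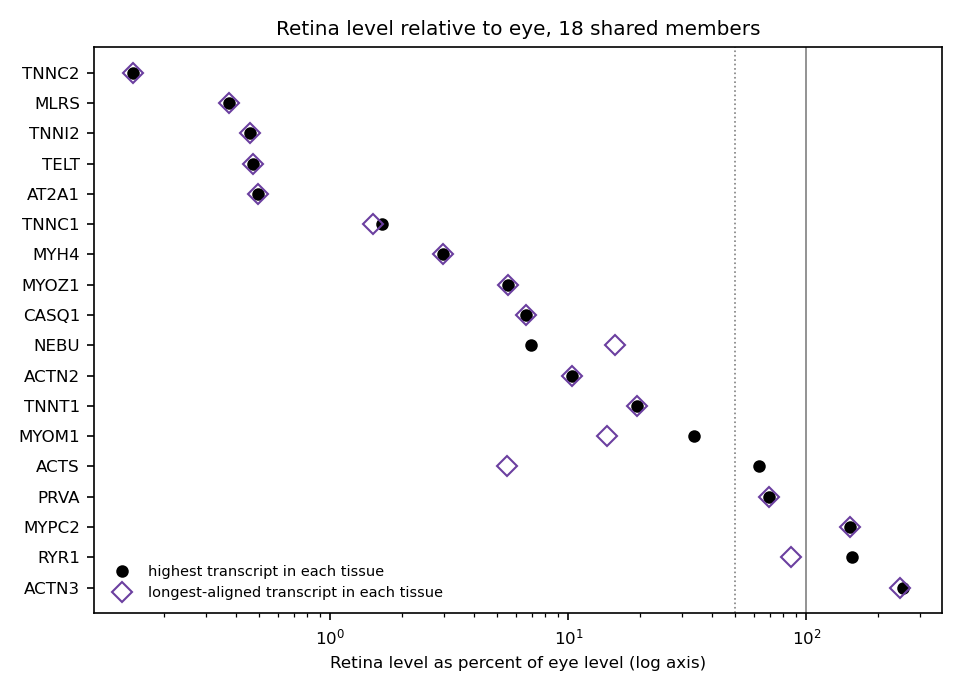
Retina level as a percent of eye level (horizontal log axis) for the 18 members in both tables, by the highest transcript in each tissue (dots) and by the transcript with the longest aligned stretch (diamonds). The solid line marks equal levels and the dotted line 2-fold lower in retina. From the top, 5 members lie under 1%, and ACTS is at 63.1% by the highest and at 5.52% by the longest-aligned transcripts.

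Of the calcium-handling members, the pump and the store protein were far higher in eye. AT2A1, the fast calcium pump of the sarcoplasmic reticulum, was at 71.6 RPKM in eye and 0.354 RPKM in retina, and CASQ1, the calcium store protein calsequestrin, was at 32.3 RPKM in eye and 2.14 RPKM in retina. The eye transcript of AT2A1 covered 994 residues, while those in retina aligned over 100 residues at most. MYG, myoglobin, the oxygen store of muscle, was at 174 RPKM in eye and missing from the retina table.

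PRVA, parvalbumin, a calcium buffer of fast fibres and of some retinal neurons, was within 2-fold. It was at 84.4 RPKM in eye and 59.0 RPKM in retina, and both transcripts aligned over 110 residues. With the best-matching transcripts PRVA was at 22.1 RPKM in eye and 59.0 RPKM in retina, a difference of -1.37.

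RYR1, the calcium release channel of skeletal muscle, had its highest transcript at 6.72 RPKM in eye and 10.5 RPKM in retina, a difference of -0.57 that changed sign with summed transcripts (0.33), length-weighted means (0.20) and best-matching or longest-aligned transcripts (0.14). The highest transcripts, of 3625 bases in eye and 2256 bases in retina, each aligned to the pig protein over 679 residues at 73% similarity. All other RYR1 transcripts had a similarity of 85% or more and lower levels. The 8 others in eye were at 0.413 to 3.07 RPKM and the 7 others in retina at 0.601 to 1.62 RPKM. With the longest-aligned transcripts RYR1 was at 1.67 RPKM in eye and 1.43 RPKM in retina.

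Members of the thick filament scaffold, Z disc and M band ranged from 2.92 to 200 RPKM in eye. TELT, telethonin, which caps titin at the Z disc, was at 200 RPKM in eye and 0.947 RPKM in retina, a ratio of 211, on transcripts of 1019 and 976 bases that both aligned over 167 residues. MYOZ1, the calcineurin-binding Z disc protein myozenin 1, was at 24.5 RPKM in eye and 1.36 RPKM in retina, over 297 residues in each. ACTN2, the alpha-actinin that crosslinks actin at the Z disc, was at 14.7 RPKM in eye and 1.53 RPKM in retina. LDB3, a PDZ and LIM domain protein of the Z disc, was at 21.5 RPKM in eye and not in the retina table.

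Titin, TITIN, the giant spring that runs from Z disc to M band, had 92 transcripts in eye and none in retina. The highest, at 5.03 RPKM, was also the longest, at 8822 bases and 2600 aligned residues, and the other 91 lay between 0.303 and 1.44 RPKM. MYOM1, myomesin 1 of the M band, was at 3.42 RPKM in eye and 1.15 RPKM in retina, a difference of 1.04, just past the 2-fold mark. It was within 2-fold with summed transcripts (0.42), a pseudocount of 5 RPKM (0.45) and equal totals (0.88).

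The myosin-binding proteins C, which sit on the thick filament, ran against the fast over slow order of the troponins. MYPC1, the slow form, was at 28.6 RPKM in eye on 9 transcripts and not in the retina table. MYPC2, the fast form, was at 2.92 RPKM in eye and 4.43 RPKM in retina, a difference of -0.47. This was -1.58 with summed transcripts, past the 2-fold mark, and -0.03 with length-weighted means. Slow MYPC1 was thus 9.81 times fast MYPC2 in eye, and 6.57 times with the longest-aligned transcripts. The eye transcript of MYPC2 covered 1100 residues and the highest in retina 714 residues.

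ACTN3, the alpha-actinin of fast fibres, was the 1 member at least 2-fold lower in eye, at 26.5 RPKM in eye and 67.7 RPKM in retina. Its retina transcripts were of 2 sorts. The 2 highest, at 67.7 and 62.1 RPKM on 1704 and 2238 bases, aligned over 235 residues each at 99% similarity. The other 6 were at 1.12 to 2.81 RPKM. In eye, a transcript of 2857 bases that aligned over 900 residues was at 25.1 RPKM, close to the highest at 26.5 RPKM. With length-weighted means the difference was -0.60, and with sums -0.37, both within 2-fold. Alpha-actinins have close paralogs, and the source of the 2 high retina transcripts was not tested.

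**Figure D4:**
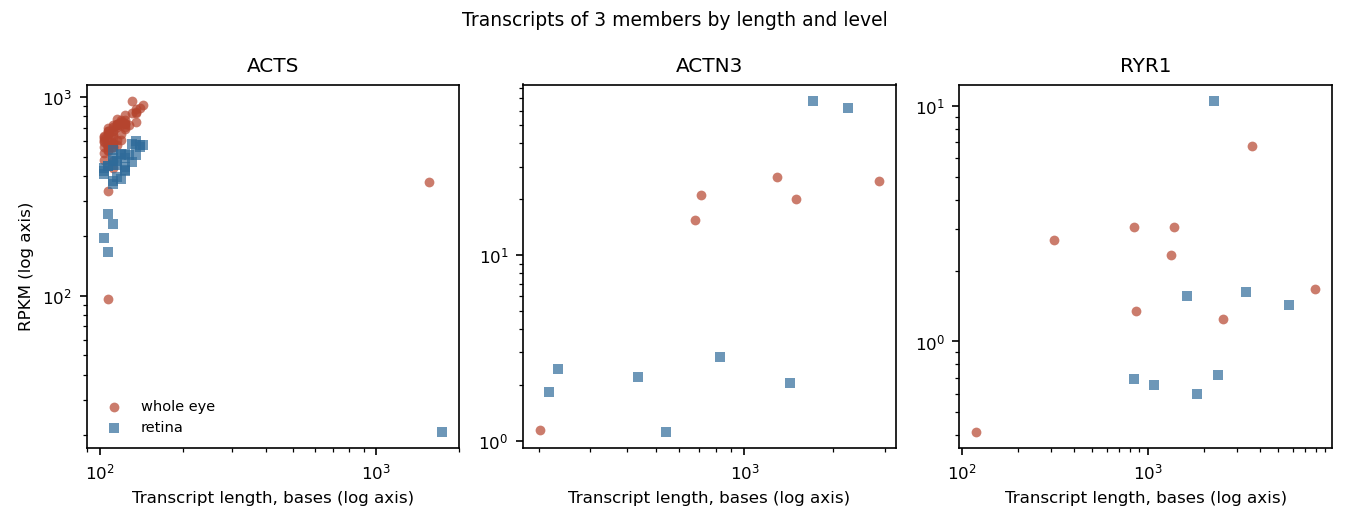
Length (horizontal log axis, bases) and RPKM (vertical log axis) of each transcript of ACTS, ACTN3 and RYR1 in whole eye (circles) and retina (squares). The short ACTS fragments of both tissues lie close together while the 2 long ones lie apart, at 374 RPKM in eye and 20.6 RPKM in retina, and 2 retina transcripts of ACTN3 stand above the rest.

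For 7 members the longest-aligned transcripts of eye and retina had similar alignment lengths, the shorter at least 90% of the longer. In 6 of these 7, MLRS, TNNI2, TELT, TNNC1, MYOZ1 and TNNT1, eye was more than 2-fold higher, with ratios of 267, 219, 211, 66.5, 17.9 and 5.16. These are ratios of RPKM without the added 1 RPKM. The share of all names passing 2-fold under this alignment condition was not computed. With longest-aligned transcripts and no such condition, it was 11.8% on the log2 scale. PRVA, with a ratio of 1.43, was the exception among the 7.

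The retina level as a percent of the eye level ran from 0.148% to 256% among members. It was under 1% for TNNC2, MLRS, TNNI2, TELT and AT2A1, at 0.148%, 0.374%, 0.457%, 0.473% and 0.495%, where 0.244% of names in both tables were under that mark. It lay at 1.64% for TNNC1, 2.97% for MYH4, 5.58% for MYOZ1, 6.64% for CASQ1 and 6.97% for NEBU, and at 10.4% for ACTN2 and 19.4% for TNNT1. MYOM1 stood at 33.6%, ACTS at 63.1% and PRVA at 69.9%, and MYPC2, RYR1 and ACTN3 were above the eye level. No single ratio of retina to eye held for all members.

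The other genes of muscle, in lists made from textbook knowledge, were described by the same counts. Over 8 lists of skeletal muscle genes outside the members, 102 of 116 names searched were found. Some of those not found, such as PFKAM and COX6A2, may not be Swiss-Prot entry names, so 116 is an upper count. Of the 102 found, 66 were in both tables, 35 had no retina entry and 1, MYPC3, had no eye entry. Over all names in the eye table, 8.75% had no retina entry. Among the 64 that reached 1 RPKM in either tissue, eye exceeded retina by 2-fold or more for 27 and fell short by as much for 1. Their median difference was 0.60. Over all names compared, 11.8% passed 2-fold with eye the higher and 3.6% with eye the lower. The same shares over all names apply to the counts of each list below. Some of these lists hold genes that other tissues of the eye also express.

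Further thin filament genes had 6 of 8 names in both tables at least 2-fold higher in eye, with a median of 2.09. The tropomyosins, which carry troponin along actin, were higher in eye. TPM1 was at 227 RPKM in eye and 31.9 RPKM in retina, TPM2 at 129 RPKM in eye and 1.44 RPKM in retina, and TPM3 at 109 RPKM in eye and 42.9 RPKM in retina. ACTC, cardiac actin, was at 620 RPKM in eye on a fragment of 127 bases and 57.9 RPKM in retina.

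Of 6 thick filament names in both tables, 4 were at least 2-fold higher in eye, with a median of 1.87. MYL6B, an essential light chain of slow and nonmuscle myosin, was at 145 RPKM in eye and 33.9 RPKM in retina. MLRV, the regulatory light chain of slow fibres and heart ventricle, was at 70.1 RPKM in eye and missing from the retina table, so that fast MLRS was 5.22 times MLRV in eye. The nonmuscle chain MYH14 was at 16.7 RPKM in eye and 8.53 RPKM in retina, and OBSL1, an obscurin relative, at 14.2 RPKM in eye and 9.76 RPKM in retina.

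Of 12 names of the Z disc and costamere in both tables, 6 were at least 2-fold higher in eye, with a median of 0.83. A further 9 had no retina entry. CRYAB, a chaperone that is also a major lens protein, was at 1365 RPKM in eye and 24.1 RPKM in retina. FHL1, a LIM protein of muscle, was at 84.2 RPKM in eye and 55.1 RPKM in retina, and CAPZB, which caps actin filaments in all cells, at 83.2 RPKM in eye and 65.0 RPKM in retina. DESM, desmin, the intermediate filament of muscle, was at 60.5 RPKM in eye only.

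Of the genes of excitation-contraction coupling, none of the 6 in both tables differed by 2-fold, with a median of -0.14, and 9 others had no retina entry. The shared ones included ASPH, whose gene also encodes the triad protein junctin, at 42.7 RPKM in eye and 47.6 RPKM in retina, and AT2A2, the calcium pump of slow muscle and most other cells, at 40.8 RPKM in eye and 44.8 RPKM in retina. Fast AT2A1 was 1.75 times AT2A2 in eye. The names in eye only included STAC3, an adaptor of the voltage sensor, at 10.1 RPKM, and SRCA, sarcalumenin, at 8.51 RPKM.

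Genes of sarcomere assembly and turnover were low. HSPB2, a small heat shock protein of muscle, led them at 12.7 RPKM in eye and 1.92 RPKM in retina, followed by HSPB7 at 8.95 RPKM in eye only. The ubiquitin ligase subunit FBX32 was at 7.59 RPKM in eye and 5.75 RPKM in retina, and the ring finger protein TRI54 at 4.33 RPKM in eye only. Of the 5 shared names, 2 were at least 2-fold higher in eye, with a median of 0.59.

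Myogenic factors and neuromuscular junction genes had list medians of -0.20 over 6 names and 0.31 over 7 names. These medians leave out 4 myogenic factors and 2 junction genes that had no retina entry, where 8.75% of all names in eye had none. Of the 6 myogenic factors compared, 2 were at least 2-fold higher in eye. MYOD1, MYF5 and PAX7, regulators of muscle precursors, were found in neither table. MEF2D, a transcription factor of muscle and neurons, was at 26.8 RPKM in eye and 37.1 RPKM in retina, and MEF2A at 12.4 RPKM in eye and 12.1 RPKM in retina. MSTN1, a musculoskeletal embryonic nuclear protein, was at 16.8 RPKM in eye and 0.787 RPKM in retina. Of the 7 junction genes 1 was at least 2-fold higher in eye, near the 11.8% share of all names compared. ACES, acetylcholinesterase, was at 26.2 RPKM in eye and 32.6 RPKM in retina, and the clustering factor AGRIN at 9.86 RPKM in eye and 7.76 RPKM in retina. Its receptor LRP4 was at 5.21 RPKM in eye and 6.84 RPKM in retina, and ACHB, the acetylcholine receptor beta subunit of muscle, at 3.41 RPKM in eye and 3.19 RPKM in retina.

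Of 14 enzymes of muscle energy supply, all in both tables, 6 passed 2-fold with eye the higher and 1 with eye the lower, with a median of 0.78. CAH3, carbonic anhydrase 3 of slow fibres and fat, was at 225 RPKM in eye and 1.04 RPKM in retina. ENOB, muscle enolase, was at 845 RPKM in eye and 1027 RPKM in retina on fragments of 148 and 150 bases, and LDHA, lactate dehydrogenase A, at 660 RPKM in eye and 531 RPKM in retina. KCRM, muscle creatine kinase, was lower in eye, at 210 RPKM on 2032 bases in eye and 584 RPKM on 115 bases in retina.

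**Figure D5:**
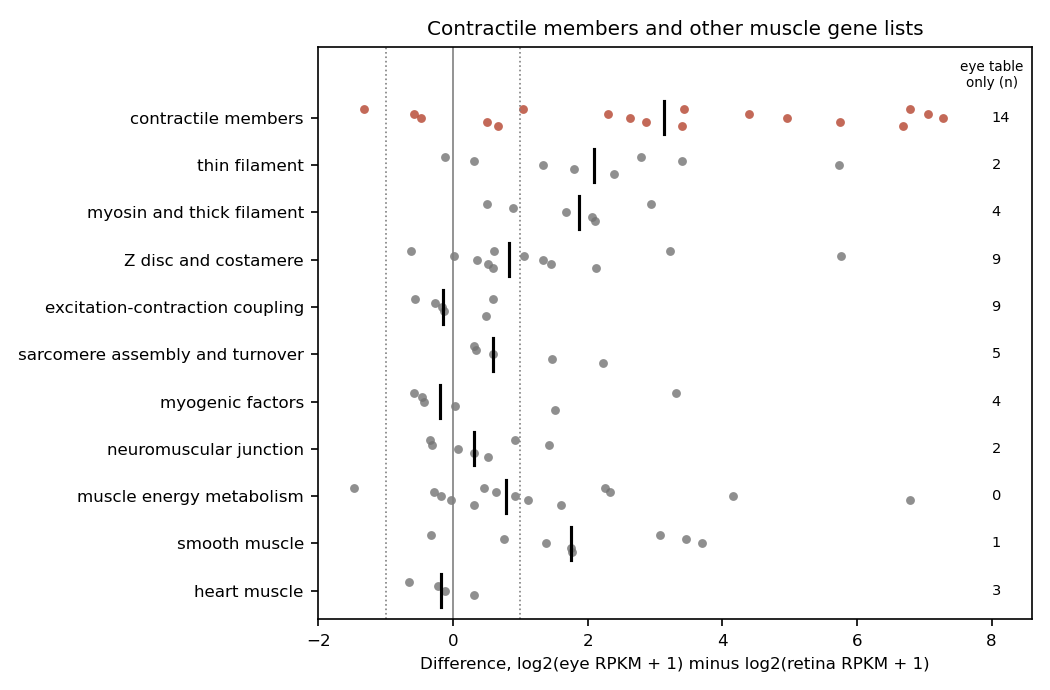
Difference between eye and retina on the log2 scale (horizontal axis, positive values higher in eye) for the 18 shared contractile members and for shared names of 10 comparison lists that passed the filter. Bars are medians, dotted lines mark 2-fold, and the column at the right counts names in the eye table only, which have no difference. The members and the thin filament list have the highest medians, 3.14 and 2.09.

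Markers of other muscle types were measured beside these. Of 8 smooth muscle names in both tables, as expressed in iris, ciliary body and vessels, 6 were at least 2-fold higher in eye, with a median of 1.76. Over all names compared 11.8% were. ACTA, smooth muscle actin, was at 257 RPKM in eye and 74.9 RPKM in retina, and ACTH, the gamma form, at 162 RPKM in eye and 95.8 RPKM in retina. TAGL, transgelin, was at 68.1 RPKM in eye and 7.22 RPKM in retina, and MYL9, the regulatory light chain of smooth muscle myosin, at 56.3 RPKM in eye and 4.22 RPKM in retina. Among the 6 defining smooth muscle markers the summed level was 427 RPKM in eye and 155 RPKM in retina. The part of smooth muscle in the levels of ACTS and other shared genes was not tested.

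Of 6 defining heart markers, ANF and MLRA, atrial natriuretic factor and the atrial regulatory light chain, were found in neither table, and MYPC3 in retina only, at 4.08 RPKM. The 6 had a summed level of 57.0 RPKM in eye and 53.1 RPKM in retina. No heart list name differed by 2-fold among the 4 in both tables, with a median of -0.17. TNNT2, cardiac troponin T, was at 52.4 RPKM in eye and 41.9 RPKM in retina. CSRP3, a muscle LIM protein of heart and slow fibres, was at 7.95 RPKM in eye only, as were MLRV and MYH6, given above.

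The 8 skeletal markers had a summed level of 2151 RPKM in eye and 614 RPKM in retina, of which ACTS gave 952 RPKM in eye and 601 RPKM in retina. MYH15, a slow heavy chain known from extraocular muscle, was found in neither table. The muscles that move the eyeball and other striated muscle of the orbit and lids cannot be told apart in these tables.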

How the data were processed

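Whole eye and retina were each represented by a deposited table of assembled transcripts with an expression value, a length and a best hit, and by a deposited table of Swiss-Prot hits with an E-value, a score and a similarity in percent, per the file headers. The headers do not name the unit of expression. RPKM was taken as the deposited unit because value times length was a whole multiple of 1 constant per table, within 0.01 reads, for 100% of transcripts in both. The authors' total behind that constant is the depth given here, and it is per tissue, not per library. Recovered reads summed to 19.2 times it in eye and 10.5 times in retina. The submitters' processing notes name Bowtie. Neither its role nor the assembler or search tool is given in the sources used here.

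Transcripts were assigned to an entry name by the hit name without its species code. The RPKM of the highest transcript stood for a name. Names reaching 1 RPKM in at least 1 tissue were compared with a pseudocount of 1 RPKM and no rescaling. The tables hold separate transcript sets, each scaled to its own total. Counting intervals at 95% were exact Poisson for levels and from the variance of the logarithm for ratios. Symbols of 28 of the 33 members were found in RefSeq.

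The members and lists were chosen with earlier results of these data known. All members are named, and from each list the 4 names highest in eye, with any at least 2-fold lower in eye. Names in 2 lists count in both lists, but once in counts pooled over lists. Some results that this rule selects are not reported here. The functions were tested on simulated data. Python 3.11.15, pandas 2.3.3 and scipy 1.17.1 were used. Alternatives covered the transcript standing for a name, hit quality, pseudocount, filter, scaling and the mark for a call.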

Additional observations from a re-analysis of the deposited data

How the results depend on the processing

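No paired analysis was possible because each table holds 1 value per tissue, and for the same reason no replicate could be left out. Between 12 and 14 members passed the mark for a call, higher in eye, under all 14 alternatives. That mark was 4-fold for the call at 4-fold, and 2-fold otherwise. With a filter of 10 RPKM 16 members were compared, and with mammalian hits 17. Over all names the share passing ran from 3.82% with a call at 4-fold to 16.8% with summed transcripts. Of the 13 called members, 12 stayed past 2-fold in each alternative that compared them. MYOM1 was the exception, at 0.42 with summed transcripts, 0.45 with a pseudocount of 5 and 0.88 with equal totals. ACTN3 stayed lower in eye, but within 2-fold with summed transcripts (-0.37) and length-weighted means (-0.60). RYR1, MYPC2, PRVA and ACTS, within 2-fold by the highest transcript, moved under 7, 5, 4 and 6 alternatives. RYR1 changed sign, to 0.33 with sums, and MYPC2 was at -1.58 with sums. ACTS was at -0.62 with best-matching transcripts and 4.12 with transcripts of 200 bases or more, and PRVA at -1.37 with best-matching transcripts. The causes were not tested.

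The median difference of members was 3.25 with sums, 3.02 with best-matching transcripts, 3.32 with length-weighted means, 3.42 with transcripts of 200 bases or more, with a filter of 10 RPKM and with longest alignments, 3.40 with mammalian hits, 3.78 and 2.16 with pseudocounts of 0.1 and 5, and 2.97 with equal totals. That of the lists together, without members, was 0.70, against 1.12, 0.86 and 0.84 with the first 3 measures, 0.82 with mammalian hits, 0.88 and 0.43 with the pseudocounts, 0.62 with no filter, 0.91 with a filter of 10 RPKM, 0.45 with equal totals and 0.86 with longest alignments. Of 74 list names compared 33 were called higher, where 11.8% of all names were. The counts were 21 of 44 with a filter of 10 RPKM, where 12.8% of all names were called, and 19 of 74 with a call at 4-fold, which 3.82% of all names passed. Equal totals moved the median of all names to -0.25. MYH8 led the heavy chains at 57.3 RPKM with best-matching transcripts and longest alignments, MYH4 by the median over transcripts, and MYH1 with the other measures of level tried. The longest-alignment setting was chosen after seeing the data.

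Depth limits mainly low retina values such as TNNC2, with 21 reads.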
